A study of Mus musculus with 7 samples.

Results

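The 10 genes described here mark tissue macrophages of the fetal testis. They were *C1qa*, *C1qb*, *C1qc*, *Csf1r*, *Cx3cr1*, *Mrc1*, *Cd163*, *Fcgr3*, *Cd68* and *Lyz2*, chosen by name from the 24739 rows of a RefSeq table of expression values. All 10 were found there. RNA-Seq had been done on whole testes of C57BL/6 mouse embryos at E14.5, with 1 pair of testes from 1 embryo in each library. The libraries fell into 3 labelled wild-type and 4 labelled mutant. Mutant embryos were homozygous for the zf5 allele of *Glis3*, a deletion that removes an exon and parts of the introns on either side. The allele is carried by every cell of the embryo, macrophages and their precursors included. Ribosomal RNA had been depleted, with no selection for poly-A tails. The question was whether the macrophage genes differed between wild-type and mutant testes.

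Macrophages of the fetal testis come from the yolk sac and from fetal monocytes, and sit mainly in the interstitium and along the vessels. They engulf dying or misplaced cells and take part in the remodeling of the vessels as the testis takes shape. Their survival depends on signaling through the receptor CSF1R, and they secrete C1q, the complement protein that tags cells and debris for uptake.

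Values are FPKM, which scale fragments by the length of the transcript and by the size of the library, so that levels can be set side by side between genes. Tests were made with limma on log2(FPKM + 0.5) for the 13988 genes that averaged 0.5 FPKM or more over the libraries, and fold changes are on that scale, which understates the change of low genes. *Glis3* (chr19:28262448-28680077, mm10) stood at 7.63, 6.89 and 2.91 FPKM in wild-type replicates 1 to 3 and at 3.86, 3.26, 2.90 and 2.66 in the mutants. The library labelled wild-type replicate 3 was thus within the mutant range, and the difference of -0.69 (SE 0.28) had an adjusted p of 0.268 (limma, Benjamini-Hochberg), against -1.09 and 0.00992 without that library, in a range of adjusted p from 0.00992 to 0.57 over the alternatives. Results for the macrophage genes are therefore also given without it. Sums of FPKM reached from 694243 in wild-type replicate 1 to 1018678 in mutant replicate 3. The number of fragments behind a value is unknown, and p-values measure the spread between these embryos.

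The label was checked against genes that define macrophages. *Csf1r* averaged 2.94 FPKM in wild-type testes, and *Emr1*, the gene of the macrophage surface protein F4/80, averaged 4.25 ± 0.806 (SD, n = 3) in wild-type and 5.12 ± 1.21 (SD, n = 4) in mutant testes. Genes of some settled tissue macrophages were close to 0. *Cd163* stayed under 0.04 FPKM in every library, *Siglec1* averaged 0.0281 and 0.0638 FPKM in wild-type and mutant testes, *Timd4* 0.0568 and 0.0313, and *Vsig4* was listed at 0 in 4 of 7 libraries. Other macrophage genes were not close to 0. Over the 7 libraries *Pf4* averaged 10.5 FPKM, *Mertk* 6.10, *Mrc1* 5.53, *Stab1* 4.31 and *F13a1* 2.42, with *Folr2* at 0.592 and *Lyve1* at 0.332. In whole testis, a different number of macrophages and a different amount of RNA per macrophage cannot be told apart.

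**Figure D1:**
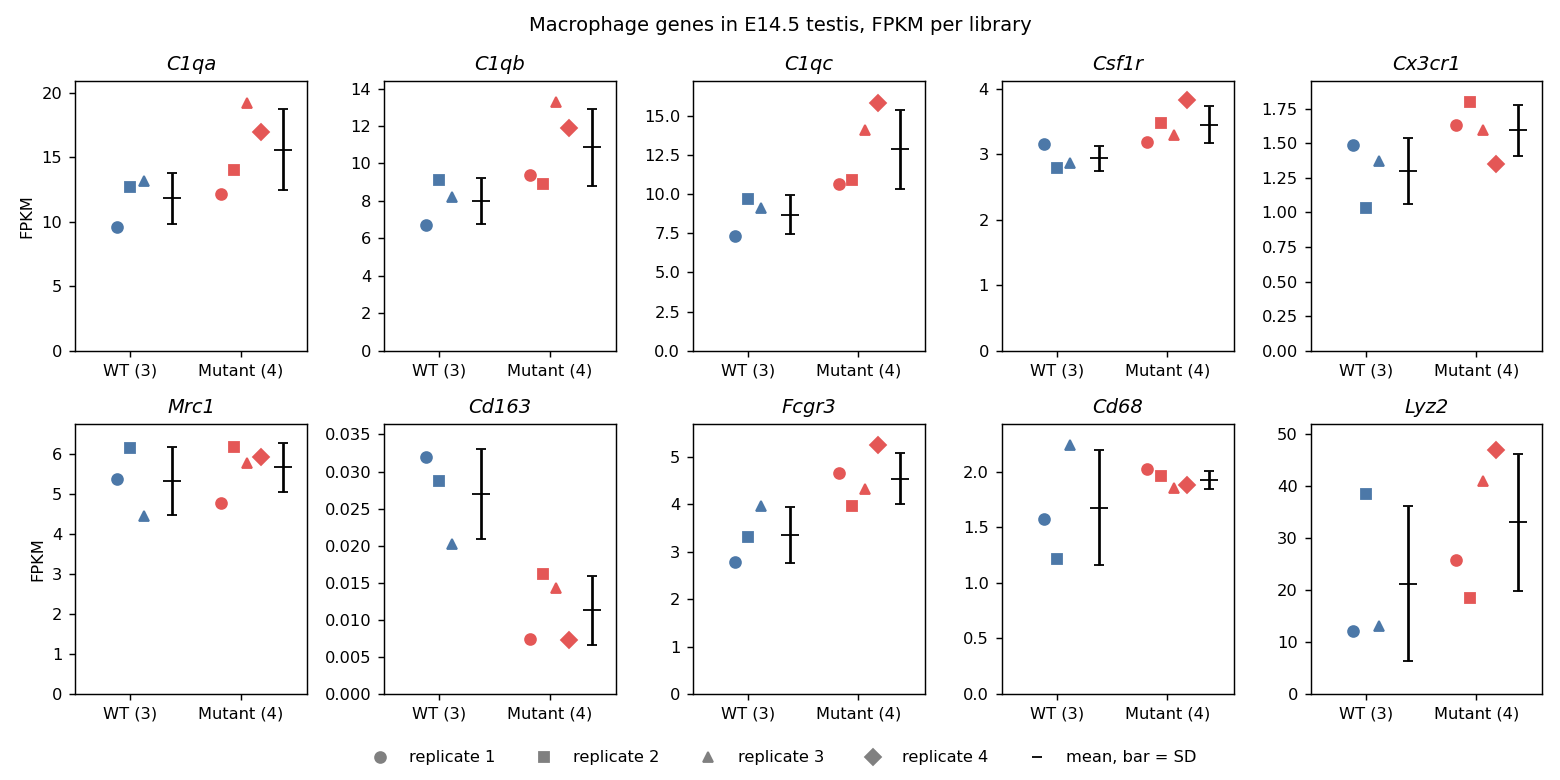
FPKM of the 10 macrophage genes in each library, 1 panel per gene with its own linear axis from 0. Points are libraries, blue for wild-type and red for mutant, with 1 marker shape per replicate number, and black bars give the mean and SD of each group. The C1qc panel shows every mutant above every wild-type library, from 10.6 FPKM against at most 9.68, whereas in the Mrc1 panel the groups lie across each other.

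The genes *C1qa*, *C1qc* and *C1qb* lie close together on the minus strand of chromosome 4 and encode the A, C and B chains that assemble into C1q. All 3 estimates were higher in the mutant, and none passed the adjusted threshold. *C1qa* (chr4:136895916-136898844) stood at 9.56, 12.7 and 13.2 FPKM in the wild-type libraries and at 12.1, 14.0, 19.2 and 17.0 in the mutants. Of the mutants, 3 of 4 were above every wild-type library, and mutant replicate 1 was within their range. Means were 11.8 ± 1.95 (SD, n = 3) and 15.6 ± 3.14 (SD, n = 4), a log2 fold change of 0.38 (SE 0.17, limma adjusted p = 0.297), which was 0.24 without wild-type replicate 1 (limma adjusted p = 0.601). *C1qb* (chr4:136880145-136886177) stood at 6.70, 9.11 and 8.20 FPKM in wild-type and at 9.38, 8.90, 13.3 and 11.9 in mutant libraries. Mutant replicate 2 was below wild-type replicate 2, and the other mutants were above all wild-type libraries. The *C1qb* log2 fold change was 0.41 (SE 0.16), with an unadjusted p of 0.0283 and an adjusted p of 0.247 by limma.

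*C1qc* (chr4:136889802-136892914) had the smallest p-value of the macrophage genes. It stood at 7.33, 9.68 and 9.09 FPKM in wild-type libraries and at 10.6, 10.9, 14.1 and 15.8 in mutant libraries. The groups did not overlap, which held for 7.31% of all genes tested in this direction. Means were 8.70 ± 1.22 (SD, n = 3) and 12.9 ± 2.52 (SD, n = 4). The log2 fold change was 0.53 (SE 0.16, 95% interval 0.17 to 0.88), with an unadjusted p of 0.00851 and an adjusted p of 0.186 by limma, and a two-sided exact permutation test gave p = 0.0571, where 35 splits allow no p below 0.0286. Without the library labelled wild-type replicate 3 the estimate was 0.56, with a limma adjusted p of 0.118, the lowest of its alternatives, which reached up to 0.432.

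The chains kept close proportions while their sum varied. *C1qa* made up between 37.8% and 43.2% of the summed FPKM of the chains in the 7 libraries, *C1qb* between 26.3% and 29.2%, and *C1qc* between 29.9% and 35.4%. The sum was 23.6, 31.5 and 30.4 FPKM in wild-type libraries and 32.1, 33.8, 46.6 and 44.7 in mutants, so the lowest mutant stood just above the highest wild-type library.

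Sequences are shown for the genes with an unadjusted p under 0.05, *C1qc*, *C1qb* and *Fcgr3*, the macrophage genes with the smallest p-values for a difference between the groups. They are RefSeq promoter sequences (GRCm38.p6), on the gene's own minus strand and 5′ to 3′, limited to the part of the 250 bases before the start that holds no annotated exon. Capitals mark matches to GAGGAAG, letters bound by PU.1 and other ETS factors, or to TGCTGAC, a site for MAF factors, on either strand. The stretches lie at chr4:136886201-136886450 for *C1qb*, chr4:136893066-136893164 for *C1qc* and chr1:171059404-171059626 for *Fcgr3*.
C1qb: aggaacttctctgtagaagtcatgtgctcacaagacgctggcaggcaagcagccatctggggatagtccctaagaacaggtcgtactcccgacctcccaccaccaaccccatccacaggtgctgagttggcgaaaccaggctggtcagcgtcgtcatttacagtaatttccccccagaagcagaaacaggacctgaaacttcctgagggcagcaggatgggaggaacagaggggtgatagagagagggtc
C1qc: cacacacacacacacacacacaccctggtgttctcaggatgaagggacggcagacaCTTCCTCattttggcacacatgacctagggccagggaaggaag
Fcgr3: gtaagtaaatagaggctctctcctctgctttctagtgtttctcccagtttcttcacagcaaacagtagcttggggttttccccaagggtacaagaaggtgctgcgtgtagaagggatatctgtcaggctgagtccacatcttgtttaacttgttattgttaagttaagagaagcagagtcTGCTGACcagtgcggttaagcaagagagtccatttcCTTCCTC

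Promoters of chromosome 18, where *Csf1r* lies, were left out. Of the 10 genes, 8 had promoter entries, 9 entries in all. GAGGAAG was found in 4 of these 9 entries, in 3 genes, *C1qc*, *Fcgr3* and *Mrc1*, and in 10.6% of the 32851 promoters kept. The entries of *Fcgr3* overlap and hold the same match. In *C1qc* the match lay 194 to 188 bases before the start. TGCTGAC was found in *Fcgr3* alone among these genes and in 3.81% of the promoters kept, and the C/EBP letters TTGCGCAA in none of the 9 entries and in 0.164% of the promoters kept. Whether a factor binds at these letters was not tested.

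Receptors that recognize antibodies and sugars came next. *Fcgr3* (chr1:171051169-171059403, minus strand) encodes a receptor for IgG that activates uptake. It stood at 2.79, 3.31 and 3.96 FPKM in wild-type libraries and at 4.65, 3.95, 4.32 and 5.24 in mutants. Only the library labelled wild-type replicate 3 reached into the mutant range, at the level of mutant replicate 2. Means were 3.35 ± 0.586 (SD, n = 3) and 4.54 ± 0.547 (SD, n = 4), a log2 fold change of 0.39 (SE 0.13, limma unadjusted p = 0.0157, adjusted p = 0.21). Without that wild-type library the estimate was 0.51, with a limma adjusted p of 0.0673, the lowest of its alternatives, which reached up to 0.458.

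*Mrc1* (chr2:14229414-14332023, plus strand), the mannose receptor, stood at 5.39, 6.17 and 4.47 FPKM in wild-type libraries and at 4.80, 6.18, 5.78 and 5.95 in mutants. The groups overlapped almost throughout. The log2 fold change was 0.08 (SE 0.12, limma adjusted p = 0.761), and -0.03 without the library labelled wild-type replicate 3. *Cd163* (chr6:124304651-124330527), the scavenger receptor for hemoglobin bound to haptoglobin, stood at 0.0319, 0.0287 and 0.0202 FPKM in wild-type libraries and at 0.00737, 0.0162, 0.0143 and 0.00725 in mutants. Every mutant was lower, with p = 0.0286 by the two-sided exact permutation test, the smallest it can give, and 7.59% of the genes tested had groups that did not overlap in this direction. *Cd163* was below the filter, so that limma did not test it.

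Proteins of the lysosome and of secreted granules followed. *Cd68* (chr11:69664213-69666170), a lysosomal membrane protein of macrophages, stood at 1.57, 1.22 and 2.24 FPKM in wild-type libraries and at 2.03, 1.96, 1.85 and 1.88 in mutants. The library labelled wild-type replicate 3 was the highest of all, and the SD was 0.518 among wild-type (n = 3) and 0.0801 among mutant libraries (n = 4), with means of 1.67 and 1.93. The log2 fold change was 0.19 (SE 0.16, limma adjusted p = 0.572), and 0.36 without that library (limma adjusted p = 0.13, in a range of 0.13 to 0.928 over its alternatives), and 0.03 without wild-type replicate 2. *Lyz2* (chr10:117277541-117282272), the lysozyme that cleaves bacterial cell walls, stood at 12.04, 38.5 and 13.1 FPKM in wild-type libraries and at 25.7, 18.4, 41.0 and 46.8 in mutants. It varied most of the 10 genes within a group, and wild-type replicate 2 was above 2 of the 4 mutants. Its log2 fold change of 0.74 (SE 0.44) was the largest, with an adjusted p of 0.421 by limma, and was 1.27 without wild-type replicate 2 and 0.45 without wild-type replicate 1. The near copy *Lyz1* was at most 0.0902 FPKM.

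The receptors that keep and place macrophages showed smaller differences. *Csf1r* (chr18:61105572-61131139), the receptor of the growth factor CSF1 and of IL34, stood at 3.16, 2.78 and 2.88 FPKM in wild-type libraries and at 3.19, 3.48, 3.29 and 3.83 in mutants. The groups did not overlap, by a margin between 3.16 and 3.19. Means were 2.94 ± 0.194 (SD, n = 3) and 3.45 ± 0.283 (SD, n = 4), a log2 fold change of 0.20 (SE 0.10, limma adjusted p = 0.332). *Cx3cr1* (chr9:120048683-120068296), the fractalkine receptor of monocytes and macrophages, stood at 1.49, 1.03 and 1.37 FPKM in wild-type libraries and at 1.63, 1.80, 1.59 and 1.35 in mutants. Mutant replicate 4 was below 2 of the 3 wild-type libraries, and the log2 fold change was 0.22 (SE 0.13, limma adjusted p = 0.42), and 0.11 without wild-type replicate 2 (limma adjusted p = 0.667).

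Their ligands come from other cells. *Csf1* and *Cx3cl1* had log2 fold changes of 0.06 and 0.25, with limma adjusted p-values of 0.841 and 0.4. *Il34* lay below the filter, with 0.348 ± 0.0247 FPKM (SD, n = 3) in wild-type and 0.467 ± 0.0148 (SD, n = 4) in mutant testes. Its groups did not overlap, which held for 7.31% of all genes tested in this direction. The two-sided exact permutation test gave p = 0.0286, the smallest it can give.

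Across the 10 genes, 9 passed the filter and could be tested, which leaves out *Cd163*. By limma 0 of 9 passed an adjusted p under 0.05, against 0.00715% of all genes tested, which is 1 gene, *Cpsf4l*. At an unadjusted p under 0.05, 3 of 9 were higher in the mutant, *C1qc*, *Fcgr3* and *C1qb*, against 8.21% of all genes. Log2 fold changes were above 0 for 9 of 9, against 52.1% of all genes, with a median of 0.38 against 0.01 over all genes, and *C1qc* and *Csf1r* were the 2 of 9 with groups that did not overlap, against 7.31% of all genes. Without the library labelled wild-type replicate 3, 0 of 9 passed the adjusted threshold, against 1.16% of all genes called higher, and 5 of 9 had an unadjusted p under 0.05 (*C1qa* and *Cd68* beside the 3 above), against 10.5% of all genes higher at that p in the same fit, with a median of 0.43. In that fit the estimates were 0.46 for *C1qa*, 0.43 for *C1qb*, 0.19 for *Csf1r*, 0.26 for *Cx3cr1* and 0.51 for *Lyz2*, with limma adjusted p-values of 0.192, 0.208, 0.366, 0.364 and 0.592.

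**Figure D2:**
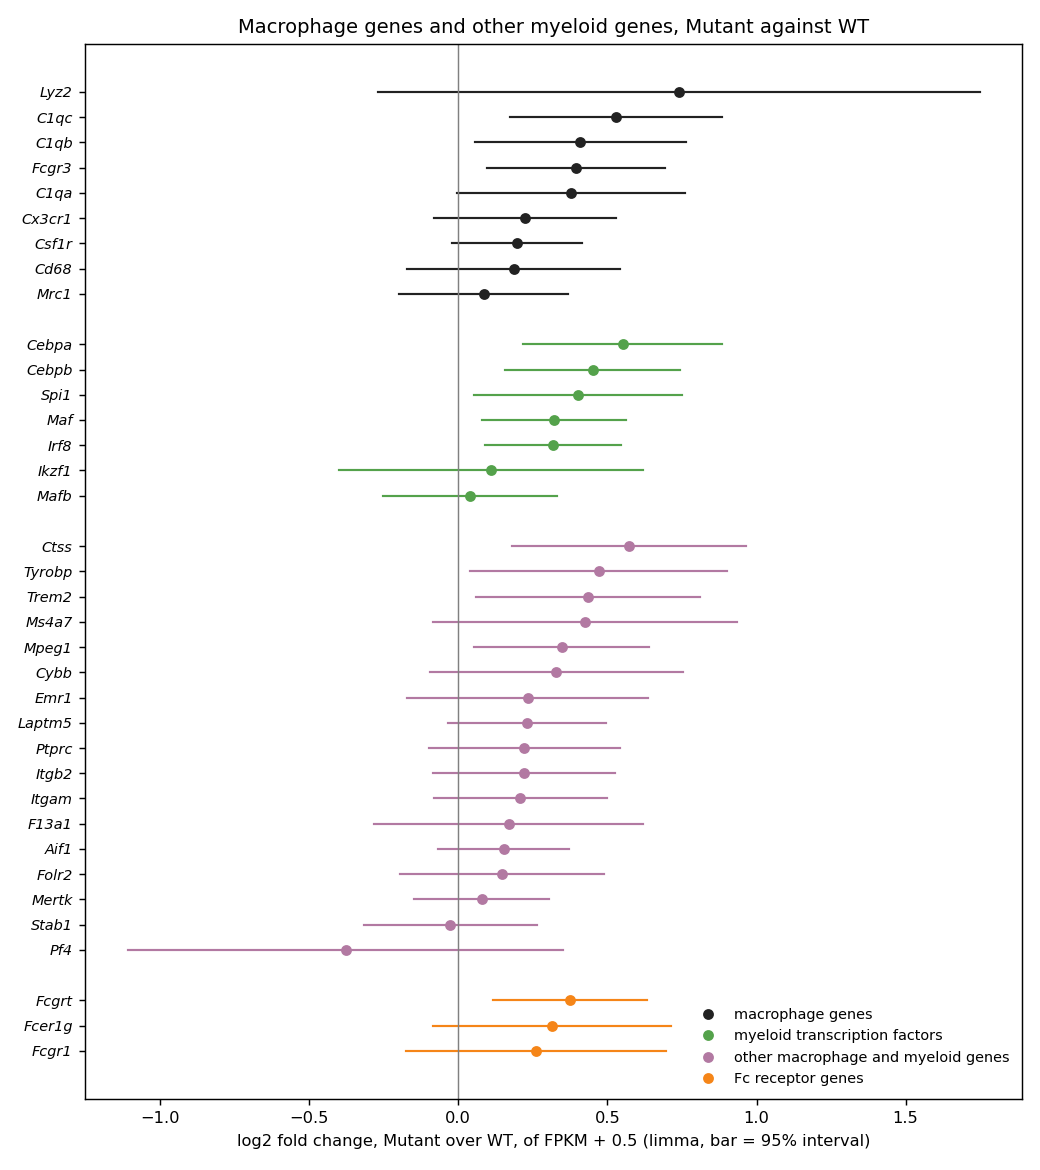
Log2 fold change, mutant against wild-type, of log2(FPKM + 0.5) with 95% intervals from limma for the macrophage genes and further macrophage and myeloid genes, with a line at 0. The interval of C1qc runs from 0.17 to 0.88, that of Mrc1, at 0.08, spans 0, and no macrophage gene passed the adjusted threshold.

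The mean of their log2 values, centred per gene, was -0.34, -0.08 and -0.18 in wild-type replicates 1 to 3 and 0.02, 0.02, 0.26 and 0.30 in the mutants. Wild-type replicate 1 was lowest and also had the lowest sum of FPKM, and the part of library scaling in this result was not tested beyond median centring and quantile normalization, which gave medians of 0.39 and 0.40. Mutant replicates 3 and 4 were the highest and also had the highest sums of FPKM, 1018678 and 995290. Wild-type replicates 2 and 3 had higher sums (956697 and 958536) than mutant replicates 1 and 2 (831918 and 776951), though lower macrophage means. Over the 7 libraries the highest correlation among pairs was 0.95, for C1q chains, and the lowest -0.59, for *Mrc1* and *Cd68*, where all points share libraries and depth. Of 11540 genes that averaged 2 FPKM or more, those most like the mean of the macrophage genes were *Alas1*, *Ctss*, *Ndufa1* and *Zc3hav1* with a Pearson r of 0.98 each over the 7 libraries, *Pank1* and *Maoa* with 0.98, *Cox6c* and *Clps* with 0.97, and *Vhl* and *Cox16* with 0.96. Of these only *Ctss*, the lysosomal protease cathepsin S, was in another list used here.

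In mean level over the 7 libraries the order was *Lyz2* with 27.9 FPKM, *C1qa* with 14.0, *C1qc* with 11.1, *C1qb* with 9.64, *Mrc1* with 5.53, *Fcgr3* with 4.03, *Csf1r* with 3.23, *Cd68* with 1.82, *Cx3cr1* with 1.47 and *Cd163* with 0.018. Within libraries, *Lyz2* was above *C1qa* and *Fcgr3* above *Csf1r* in 6 of 7. Every other gene was above the next in all 7. Ranges over the libraries were apart only between *C1qb* and *Mrc1*, between *Csf1r* and *Cd68*, and between *Cx3cr1* and *Cd163*.

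Other lists gave the surroundings. Of 8 myeloid transcription factors, 7 were tested and all 7 were higher in the mutant, against 52.1% of all genes, with a median log2 fold change of 0.32. By limma 5 of the 7 had an unadjusted p under 0.05, against 8.21% of all genes higher at that p, and 0 passed the adjusted threshold. *Cebpa*, a factor that myeloid and other cells use, averaged 12.8 ± 2.55 FPKM (SD, n = 3) and 18.8 ± 2.24 (SD, n = 4), with a log2 fold change of 0.55 and a limma adjusted p of 0.18. *Spi1*, which encodes PU.1, averaged 0.501 ± 0.097 and 0.828 ± 0.19 FPKM, with 0.40 and 0.247. *Irf8*, needed for monocytes and microglia, averaged 3.53 ± 0.519 and 4.50 ± 0.0874 FPKM, with 0.32 and 0.203, and passed the limma threshold without the library labelled wild-type replicate 3 (limma adjusted p = 0.0383, in a range of 0.0383 to 0.433 over its alternatives). In each of these 3 genes the groups did not overlap, which held for 7.31% of all genes tested in this direction.

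Of 22 other macrophage and myeloid genes, 17 were tested, 15 higher and 2 lower in the mutant, with a median of 0.22. The 2 lower were *Pf4*, with a log2 fold change of -0.38 (limma adjusted p = 0.574), and *Stab1*, with -0.03 (limma adjusted p = 0.934). At an unadjusted p under 0.05 by limma there were 4 of the 17, against 8.21% of all genes higher at that p. Groups did not overlap in 2 of the 17, against 7.31% of all genes in this direction. These were *Laptm5*, a lysosomal protein of blood cells, with a log2 fold change of 0.23, and *Trem2*, a receptor for lipids on macrophages, with 0.44. Their limma adjusted p-values were 0.353 and 0.247. Of 5 Fc receptor genes 3 were tested and all 3 were higher, with a median of 0.31. *Fcgrt*, the neonatal Fc receptor, which other cell types express too, averaged 63.4 ± 9.35 (SD, n = 3) and 82.0 ± 7.40 FPKM (SD, n = 4), with an adjusted p of 0.193 by limma. The 7 partners of C1q in the complement cascade had a median of 0.05, with 5 higher and 2 lower, 0 of them with an unadjusted p under 0.05 by limma. That median was -0.01 without wild-type replicate 1 and 0.09 without the library labelled wild-type replicate 3.

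Summed FPKM of 8 monocyte and neutrophil genes was between 99.8 and 173 in wild-type and between 131 and 569 in mutant libraries. Most of each sum came from *S100a8* and *S100a9*. Of the tested genes 7 of 7 were higher, with a median of 0.63. Groups did not overlap in 0 of the 7, against 7.31% of all genes in this direction. For 6 mast cell genes the sums were 6.76 to 10.1 and 9.96 to 26.6, with 3 of 3 tested genes higher. Among them *Hdc*, which makes histamine, averaged 6.14 ± 0.915 (SD, n = 3) and 8.56 ± 0.828 FPKM (SD, n = 4), with an adjusted p of 0.173 by limma and of 0.0345 without the library labelled wild-type replicate 3, in a range of 0.0345 to 0.38 over its alternatives. Lymphocyte genes summed to less than 1 FPKM in every library, 0 of 6 were tested, and 4 of them were listed at 0 in some library. The 5 tested erythroid genes had a median of 0.15, and 4 antigen presentation genes one of -0.02. Both turned with the library left out, to -0.16 and -0.53 without wild-type replicate 1 and to 0.26 and 0.22 without the library labelled wild-type replicate 3. Without the library labelled wild-type replicate 3 the medians were 0.42 for the transcription factors, 0.17 for the other macrophage and myeloid genes, 0.29 for the Fc receptors, 0.57 for monocyte and neutrophil genes and 1.38 for mast cell genes. The part of these cells in the macrophage result was not tested.

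For genes of the testis itself, limma called 0 in every list with all libraries. Of 6 fetal Leydig cell genes all were higher, with a median of 0.47. By limma 5 of the 6 had an unadjusted p under 0.05, against 8.21% of all genes higher at that p. The 6 include *Cyp11a1*, which starts steroid synthesis, with a log2 fold change of 0.55 (limma adjusted p = 0.186), and *Insl3*, the hormone of testis descent, with 0.66 (adjusted p = 0.133). All 6 germ cell genes were lower in the mutant, with a median of -0.81 and 0 past the adjusted threshold by limma. Without the library labelled wild-type replicate 3, 5 of the 6 passed it, against 560 of 14019 genes called lower in that fit. The mean log2(FPKM + 0.5) of the germ cell genes was 6.86, 6.47 and 5.75 in wild-type replicates 1 to 3. In mutant replicates 1 to 4 it was 5.61, 5.46, 5.58 and 5.39. The library left out was thus also the lowest wild-type one in these genes, so this count gives no separate support. Groups did not overlap in *Ddx4*, a helicase of the germ line, in *Dazl*, an RNA-binding protein of germ cells, and in *Sall4*, a factor of their early stages, with log2 fold changes of -1.08, -0.86 and -0.68 and limma adjusted p-values of 0.136, 0.139 and 0.193. Of all genes tested, 7.59% had groups that did not overlap in this direction. Sertoli cell genes had a median of 0.14, interstitial genes 0.15, endothelial genes -0.00 and mesonephric genes, of which 3 were tested, -0.12. These medians, without the library labelled wild-type replicate 3, were 0.29 for Sertoli cell, 0.14 for interstitial, 0.05 for endothelial and -0.00 for mesonephric genes. Among the tested genes of these lists groups did not overlap in *Cst9* (log2 fold change 0.27, limma adjusted p = 0.186) and *Lhx1* (-0.79, limma adjusted p = 0.178). *Lhx1* was listed here as mesonephric, and the authors name it among genes of undifferentiated spermatogonia. Which cells its difference comes from was not tested. Summed FPKM of the germ cell genes was between 574 and 1316 in wild-type and between 466 and 614 in mutant libraries, and that of the Leydig cell genes between 1602 and 2667 and between 2507 and 3083. FPKM is relative within a library, and the part of these genes in the macrophage result was not tested.

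**Figure D3:**
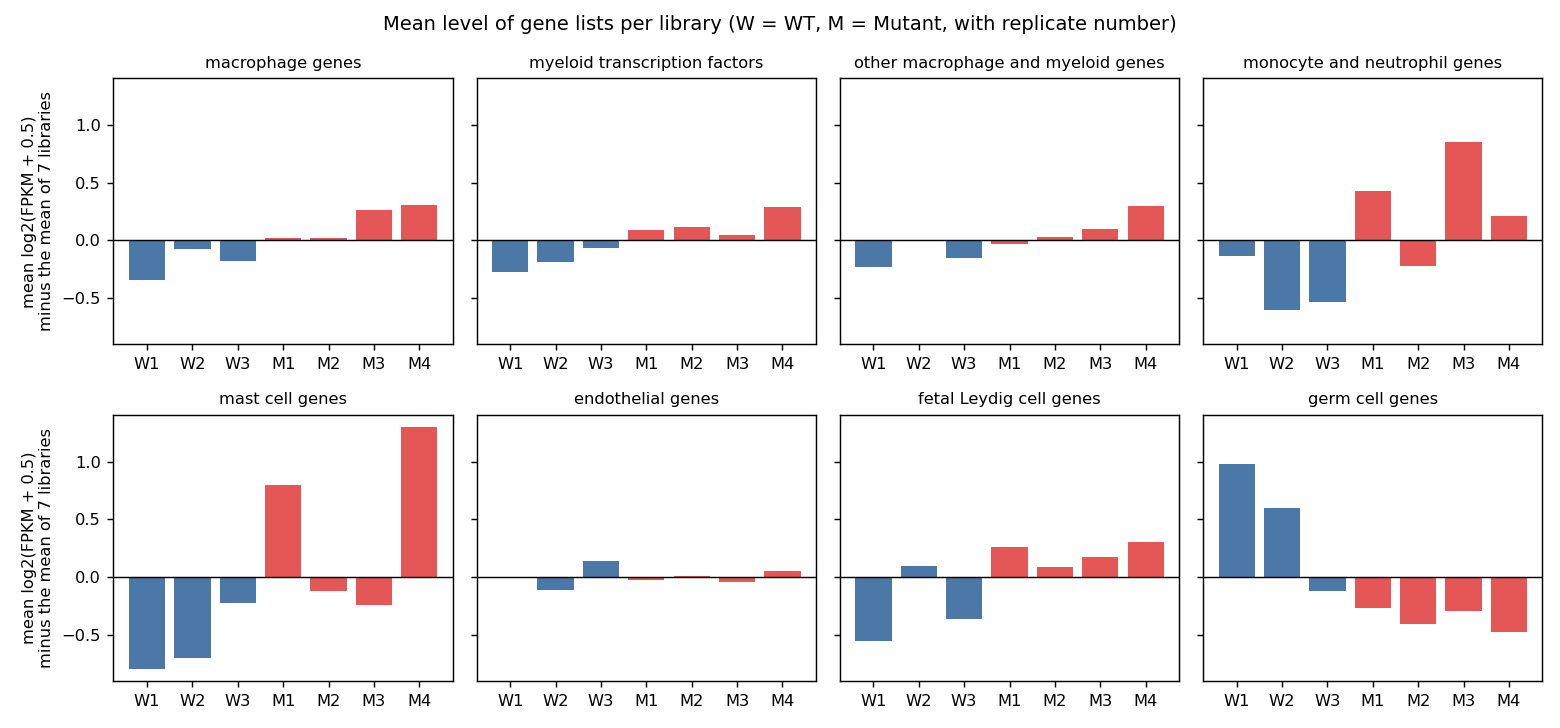
Mean log2(FPKM + 0.5) of each gene list in each library, centred on the mean of the libraries, over the genes tested, for the macrophage genes and 7 other lists. Bars are libraries, blue for wild-type (W) and red for mutant (M) with the replicate number. For the macrophage genes wild-type replicate 1 lies lowest at -0.34 and mutant replicate 4 highest at 0.30, and the germ cell list runs the other way.

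Reads that the authors counted over repeat elements give another readout of the same libraries, since many LINE, SINE and LTR copies lie in introns. The reads were aligned as unstranded, so they can also come from transcripts of the repeats themselves or from the other strand. The paper reports changed retrotransposon loci in this mutant, most of them increased. How much of these reads came from the surrounding gene was not tested. Of the 3494995 loci counted, 1251759 lay whole inside exactly 1 gene, and libraries held between 3454317 and 4670830 repeat reads in all. Of the macrophage genes 4 had a mean of at least 10 such reads, and 0 of 4 passed an adjusted p under 0.05 by edgeR, against 0.00815% of the 12267 genes tested. *Cx3cr1* had 52, 29 and 34 reads in wild-type and 41, 34, 50 and 36 in mutant libraries, a log2 fold change of 0.32 (SE 0.21, edgeR adjusted p = 0.575). *Fcgr3* had 30, 25 and 46 reads and 42, 34, 32 and 49, with 0.45 (SE 0.24, edgeR adjusted p = 0.476). *Mrc1* had a log2 fold change of 0.20 (SE 0.24) and *Csf1r* one of -0.04 (SE 0.43), with adjusted p-values of 0.799 and 0.983 by edgeR. The lowest unadjusted p among the 4 was 0.0855 by edgeR, for *Fcgr3*, and DESeq2 called 0 of the 3 to which it gave an adjusted p, with none given for *Csf1r*. Without the library labelled wild-type replicate 3 the log2 fold changes were 0.25 for *Cx3cr1*, 0.75 for *Fcgr3*, 0.23 for *Mrc1* and 0.38 for *Csf1r*. The other 6 genes held too few of these reads for the test, and *Cd68* among them held no such locus. *Glis3* itself had 922, 543 and 464 such reads in wild-type and 328, 293, 314 and 235 in mutant libraries. By this readout its groups did not overlap. The log2 fold change was -0.88 (SE 0.16, edgeR adjusted p = 0.0826, in a range of 0.000334 to 0.319 over the alternatives).

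**Figure D4:**
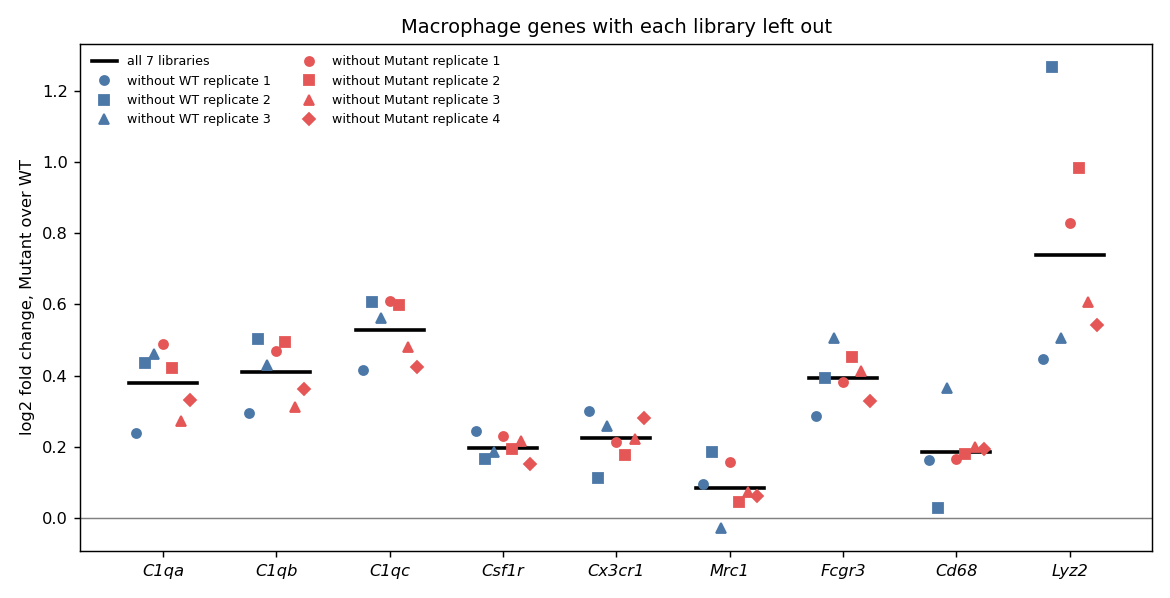
Log2 fold change of each tested macrophage gene from limma with all 7 libraries and after leaving out each library in turn. The median stayed between 0.27 and 0.43, Lyz2 moved most, from 0.45 to 1.27, and Mrc1 reached -0.03 without the library labelled wild-type replicate 3.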

How the data were processed

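RNA-Seq of whole testes at E14.5 was used, 3 libraries labelled wild-type and 4 labelled mutant, each from 1 embryo. The authors aligned reads to mm10 with TopHat and deposited FPKM per RefSeq gene from Cuffquant and Cuffnorm. The submitters' processing notes name TopHat2 2.0.12 and Cuffdiff 2.1.1. The authors also deposited counts of reads per RepeatMasker element, made with HTSeq and not normalized. In the headers a tab is absent between the names of the last wild-type and the first mutant column, and columns were taken in the order of the names. Columns of per-sample values left out numbered 0.

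In R 4.3.3, limma 3.58.1 was run two-sided on log2(FPKM + 0.5), with the trend option of eBayes, where a gene averaged 0.5 FPKM or more. P-values were adjusted over all genes tested (Benjamini-Hochberg, threshold 0.05). Two-sided exact permutation tests over 35 splits were used for 1 gene at a time. Repeat counts were summed over loci whole inside 1 gene (bedtools 2.31.1, mm10 gene spans of the RefSeq table) and tested with edgeR 4.0.16 (TMM, quasi-likelihood, mean of at least 10 reads), with DESeq2 1.42.0 as an alternative. Exons of GENCODE M21 were used to limit the promoter stretches. Other steps ran in Python 3.11.15, and tests were tried on simulated data. Cuffdiff, which needs aligned reads, was not run here.

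The macrophage genes and the other lists were chosen with earlier results of these data known. Named genes were all 10 macrophage genes, *Glis3*, genes of the other lists past the threshold or, up to 4 a list, with groups that did not overlap (genes above the filter, and *Il34* below it), genes that define a cell type, and the 10 genes most like the mean of the macrophage genes. Lists were ligands of the receptors, myeloid transcription factors, other macrophage and myeloid genes, Fc receptors, complement partners, monocyte and neutrophil, antigen presentation, mast cell, lymphocyte, erythroid and endothelial genes, and genes of Sertoli, germ, fetal Leydig, interstitial and mesonephric cells. Lists were counted, not tested. Alternatives were other pseudocounts, filters, normalizations and variance models, library weights, the replicate number as a block, and the loss of 1 library at a time. Whether same-numbered libraries deviated together was checked.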

Additional observations from a re-analysis of the deposited data

How the results depend on the processing

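Of 142 alternative values for the log2 fold changes of the macrophage genes from FPKM, 141 kept the direction and the side of the threshold. The exception was *Mrc1*, at -0.027 without the library labelled wild-type replicate 3. The count of macrophage genes called by limma was 0 in all 16 alternatives, with between 2 and 5 genes at an unadjusted p under 0.05, and with 1 library left out at a time the median log2 fold change ran from 0.27 to 0.43. From repeat reads 45 of 48 values kept the direction, and *Csf1r* turned from -0.04 to 0.38 without the library labelled wild-type replicate 3, to 0.03 without mutant replicate 1 and to 0.19 without mutant replicate 2, in a range of -0.37 to 0.38 with 1 library left out at a time. Over all genes limma called 1, and 4 with no filter, 3 after quantile normalization and 1 to 722 with 1 library left out at a time, where 722 belong to the fit without the library labelled wild-type replicate 3 (162 higher, 560 lower). On repeat reads edgeR called 1 gene, and 47 with no filter, DESeq2 called 56, and leaving out each library gave between 0 and 138. The cause of these moves was not tested.

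With a block on replicate numbers, which drops mutant replicate 4, the median of the macrophage genes was 0.33, 0 of them were called, and limma and edgeR called 0 genes each over all genes. Deviations of same-numbered libraries from their group means correlated by 0.20, -0.18 and 0.23 for numbers 1 to 3. Wild-type replicates 1 and 3 correlated best with the mutant of the same number, and wild-type replicate 2 with mutant replicate 1, by 0.13. So few and low correlations cannot show whether the numbers pair the samples.

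FPKM do not show the number of fragments behind a value, so the depth that limits *Cd163*, *Il34* or other genes below the filter is unknown. Whole testis mixes cell types, and levels per cell were not measured. There were 3 and 4 libraries, and 1 of the 3 was within the mutant range of *Glis3* FPKM, though not of its repeat reads. Differences of the size seen here were not called.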

Other observations

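The single genes given here were picked after their values were seen. *C1s1*, a protease among the complement partners of C1q, stood at 0.745, 1.59 and 2.58 FPKM in the wild-type libraries. It was listed at 0 in mutant replicate 1, and stood at 0.0122, 2.06 and 2.46 FPKM in mutant replicates 2 to 4. *H2-Aa*, a class II antigen presentation gene, stood at 0.251, 5.44 and 7.07 FPKM in wild-type and at 1.21, 0.325, 3.73 and 5.65 in mutant libraries, so that wild-type replicate 1 and mutant replicates 1 and 2 were below the other libraries. The granule protein gene *S100a8* stood at 105, 78.7 and 56.0 FPKM in wild-type and at 195, 81.4, 375 and 174 in mutant libraries, and its partner *S100a9* at 57.0, 38.3 and 33.9 and at 113, 38.3, 174 and 103.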
